A study of Mus musculus with 9 samples.

Results

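RNF and TRIM proteins are 2 large families of ubiquitin ligases, the enzymes that choose which proteins are tagged with ubiquitin. The 95 members described here were the genes whose single symbol in the array's probe-to-gene table began with Rnf or Trim followed by a digit, 56 RNF and 39 TRIM genes out of 12393 genes on the array. Where a gene had several probe sets, the one with the highest mean over all arrays stood for it, a choice that used no stage. The tissue was mid-foregut from mouse embryos, wild type throughout, of 16-20 somites (E8.5), 21-25 somites (E9.0) and 26-30 somites (E9.5), with 3 biological replicates per stage. The mid-foregut was the stretch of gut tube between the pharyngeal arches and the liver, cut out after the heart and neural tube had been taken away. Between 5 and 10 foreguts were pooled per sample, and 100 ng of RNA passed through 2 rounds of amplification before hybridisation to Affymetrix arrays. Every value below is a MAS5 signal, a linear measure of brightness, or a difference of log2(signal + 26.2), on which changes of dim genes come out smaller than they are.

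Ubiquitin is passed from an activating enzyme (E1) to a conjugating enzyme (E2), and a ligase (E3) brings the loaded E2 to its substrate. Most RNF proteins bind the E2 through a RING finger, a zinc-binding fold. TRIM proteins carry a RING finger, B-box zinc fingers and a coiled coil in this order, although several of them lack the RING. The tag can send a protein to the proteasome, move it between membranes or alter the complexes it joins, and single members act in chromatin, in Wnt and TGF-beta signalling, in organelle membranes and in innate immunity.

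Of the 95 members, 74 passed the filter on low signals, a mean log2 value of at least 6.66 over the 9 arrays. These 74 comprised 47 RNF and 27 TRIM genes, and 9 RNF and 12 TRIM genes lay below it. The 21 genes below the filter had mean signals of 6.34 to 84.8 and reached at most 176.7 on any array. They included Rnf43, a ligase that removes Wnt receptors from the cell surface, the muscle gene Trim54, and Trim23, the member nearest to the filter with a mean log2 value of 6.65. Rnf17 lay just inside it at 6.75, followed by Trim43a at 6.81.

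Most markers of the dissected tissue were measured: 10 of 12 foregut endoderm genes passed the filter, among them Foxa1, Foxa2, Sox2 and Krt8, and 9 of 12 mesenchyme genes, among them Wnt2 and Ptch1. Nkx2-1, the regulator that marks lung and thyroid endoderm, gave only 7.2 to 98.6 and Shh only 0.7 to 38.3, and both were below the filter. The brightest signal was 27480 to 32584 on 3 arrays, namely replicates 1 and 2 of 26-30 somites and replicate 1 of 21-25 somites, against 43792 to 61749 on the other 6. These narrow-range arrays all belong to the later stages, so results are also given without them. Those results leave 26-30 somites with replicate 3 alone and 21-25 somites with replicates 2 and 3. Differences that involve 26-30 somites then have no replicate at that stage and are given as sizes only. The array of 16-20 somites replicate 2 had more signal of hepatic and cardiac markers than the rest of its stage. Its hepatic markers summed to 41896, against 2747 and 5185 on replicates 1 and 3, and its cardiac markers to 19727, against 3741 and 4715. The tissue these came from was not tested. In whole tissue, fewer cells of a type and less RNA per cell cannot be told apart.

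Rnf157 had the largest difference between stages of all 74 tested members. It is a RING ligase related to Mgrn1 and has been studied mainly in rat neurons, where it supports survival and dendrite growth. Its signals were 251.9, 154.6 and 243.8 at 16-20 somites, 513.1, 741.8 and 505.4 at 21-25 somites, and 908.6, 905.5 and 570.0 at 26-30 somites. Every array of 21-25 and of 26-30 somites lay above every array of 16-20 somites, whereas the 2 later stages overlapped. Mean signals were 795 ± 195 at 26-30 somites and 217 ± 54.0 at 16-20 somites (SD, n = 3 each), a ratio of 3.67.

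**Figure D1:**
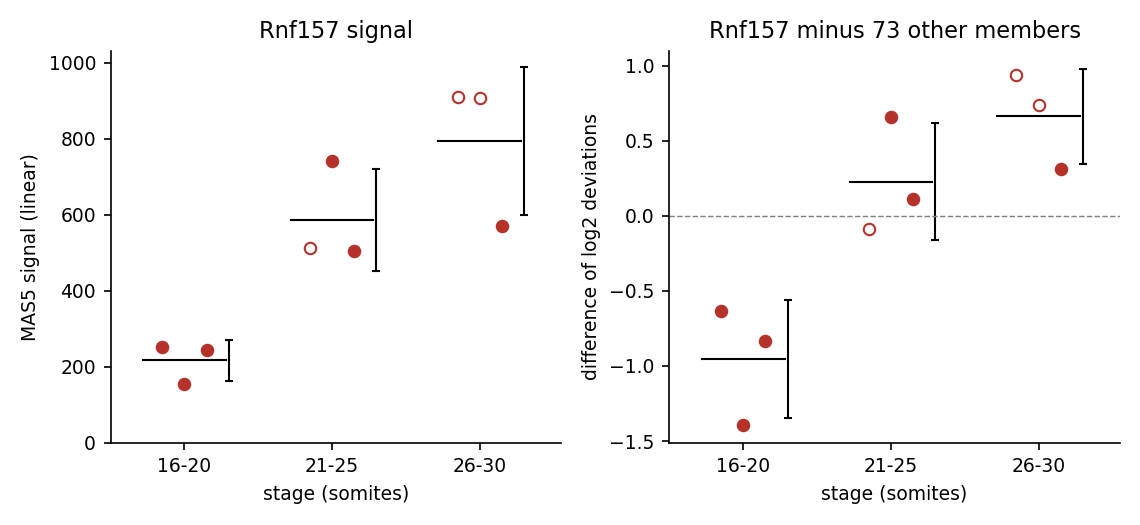
MAS5 signal of Rnf157 on each array (left, linear) and its log2 deviation from its own mean over 9 arrays minus the median such deviation of the 73 other tested members (right), by stage in somites; open circles are the 3 narrow-range arrays, horizontal lines are stage means and bars are SD (n = 3). All 3 arrays of 16-20 somites lie between 154.6 and 251.9, and the other 6 lie at or above 505.4.

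On the log2 scale the difference over the whole interval, 26-30 minus 16-20 somites, was 1.75 ± 0.27 (SE), and its adjusted p in limma was 0.231. Most of it fell in the first step, where 21-25 minus 16-20 somites gave 1.34 ± 0.27 (limma adjusted p = 0.316). The second step, 26-30 minus 21-25 somites, gave 0.41 ± 0.27 (limma adjusted p = 0.998), and the test of the second step against the first did not pass either (difference -0.93 ± 0.47, limma adjusted p = 0.79). Rnf157 had the smallest p over the whole interval among all 8675 tested genes, yet none of them passed at 0.05. Rnf157 was singled out with its earlier whole-interval result in these data known. Its ranks and p-values, here and under other settings, are therefore descriptions and no independent support. Without the 3 narrow-range arrays the whole-interval difference was 1.32 and the first step 1.42, and the second step turned to -0.10. With array weights, which give noisier arrays less influence, the whole-interval difference was 1.84 and passed (limma adjusted p = 0.00219). The largest weight, 3.38, fell on 26-30 somites replicate 1, a narrow-range array, and 26-30 somites replicate 3 had 0.67. With only the 6 arrays of the outer stages the whole-interval difference also passed (limma adjusted p = 0.0474).

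Rnf157 was also set against its family, so that a shift shared by the members of an array cancels. Levels of different probe sets cannot be compared, so each gene was first taken as its log2 deviation from its own mean over the 9 arrays, and the median deviation of the 73 other tested members was subtracted from that of Rnf157. The result was -0.64, -1.39 and -0.83 at 16-20 somites, -0.09, 0.66 and 0.11 at 21-25 somites, and 0.94, 0.74 and 0.31 at 26-30 somites. No array of 26-30 somites overlapped with 16-20 somites, whereas 21-25 somites overlapped with 26-30 somites. The mean was 0.66 ± 0.32 at 26-30 somites and -0.95 ± 0.39 at 16-20 somites (SD, n = 3 each). Rnf157 has a second, dim probe set, below the filter, whose signals were 12.2, 13.1 and 21.0 at 16-20 somites, 65.2, 25.9 and 13.2 at 21-25 somites, and 70.0, 18.8 and 28.2 at 26-30 somites. It showed 0.58 over the whole interval, and its stages overlapped.

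Because Rnf157 is known from neurons, markers of neural tissue and neural crest are given beside it. Of 14 such genes on the array, 9 were tested, 7 had a positive whole-interval difference, the median was 0.26 and 0 passed. Their summed signal was 1893 to 2237 at 16-20 somites, 2067 to 3161 at 21-25 somites and 2395 to 2529 at 26-30 somites. Of the neuronal markers, Tubb3 gave 26.6 to 67.3 and was below the filter. Elavl3 was also below it, with 14.6, 10.4 and 6.4 at 16-20 somites, 119.5, 19.3 and 97.0 at 21-25 somites, and 90.0, 70.6 and 20.5 at 26-30 somites. Their part in the Rnf157 values was not tested.

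The 250 bases upstream of the start of Rnf157 are shown with those of Rnf115, the member next to it in size of difference, and of Trim44, the TRIM gene with the largest positive difference. All are from RefSeq on GRCm38.p6, and each reads 5′ to 3′ on the strand of its gene. Capitals mark the CCAAT box (CCAAT, or ATTGG for the other strand) and the GC box (GGGCGG, or CCGCCC for the other strand), and none of the marked matches overlap. Rnf157 is at chr11:116413033-116413282 on the minus strand, Rnf115 at chr3:96727361-96727610 on the plus strand and Trim44 at chr2:102400901-102401150 on the minus strand.
Rnf157: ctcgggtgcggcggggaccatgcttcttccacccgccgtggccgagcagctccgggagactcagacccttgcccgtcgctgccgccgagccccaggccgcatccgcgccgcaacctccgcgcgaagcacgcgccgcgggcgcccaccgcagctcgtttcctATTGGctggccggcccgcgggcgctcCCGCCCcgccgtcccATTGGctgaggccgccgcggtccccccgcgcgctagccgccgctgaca
Rnf115: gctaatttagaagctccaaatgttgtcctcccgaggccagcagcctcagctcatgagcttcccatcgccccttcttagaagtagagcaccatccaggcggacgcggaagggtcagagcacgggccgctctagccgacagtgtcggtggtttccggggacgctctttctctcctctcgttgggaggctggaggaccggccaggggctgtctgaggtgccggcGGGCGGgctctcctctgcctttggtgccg
Trim44: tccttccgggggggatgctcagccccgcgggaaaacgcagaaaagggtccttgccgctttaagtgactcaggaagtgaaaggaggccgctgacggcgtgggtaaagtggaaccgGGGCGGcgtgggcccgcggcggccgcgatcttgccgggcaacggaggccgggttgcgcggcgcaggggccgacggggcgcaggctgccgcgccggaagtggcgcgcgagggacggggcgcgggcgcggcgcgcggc

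The Rnf157 window held 2 CCAAT boxes and 1 GC box, with 77.2% GC and 40 CpG dinucleotides. The Rnf115 window held 1 GC box and 0 CCAAT boxes at 63.2% GC and 17 CpG, and the Trim44 window 1 GC box and 0 CCAAT boxes at 74.4% GC and 39 CpG. Windows were found for 78 of the 95 members, 108 windows in all. The GC box occurred in 52.8% of them, against 32.7% of all 32851 RefSeq windows of this length, and the CCAAT box in 36.1%, against 33.8%. The TATA box (TATAAA, either strand) occurred in 8.33% of member windows and 12.4% of all windows, and the interferon response element (either strand) in 4.63% and 2.98%. Member windows had a median GC content of 57.8% and 14 CpG dinucleotides, against 52.4% and 6 over all windows. These matches are descriptions of letters, not measured binding sites.

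After Rnf157, Rnf115 and Rnf227 were the only tested members whose whole-interval difference exceeded 1 on the log2 scale. Rnf115 is a RING ligase first described in human breast cancer. Its signals were 2749.3, 1222.4 and 1192.9 at 16-20 somites, 1593.0, 2486.3 and 3271.8 at 21-25 somites, and 4653.4, 3266.9 and 3971.9 at 26-30 somites. All arrays of 26-30 somites lay above all arrays of 16-20 somites, and 21-25 somites overlapped with both. The difference was 1.29 ± 0.35 (limma adjusted p = 0.325), and without the narrow-range arrays 1.31. A second probe set of Rnf115, above the filter, showed only 0.27 over the whole interval and -0.08 in the second step.

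Rnf227 had signals of 141.6, 80.7 and 147.0 at 16-20 somites, 171.6, 100.9 and 157.6 at 21-25 somites, and 259.1, 487.3 and 195.8 at 26-30 somites. Its 3 arrays of 26-30 somites lay above all 6 earlier arrays, and the earlier stages overlapped. The difference was 1.13 ± 0.33 over the whole interval (limma adjusted p = 0.343), 0.94 ± 0.33 of it in the second step. The highest value belonged to a narrow-range array, and without those arrays the whole-interval difference was 0.61. Its second probe set showed 0.05.

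Rnf207 encodes a RING protein known in human and rabbit heart, where it affects a potassium channel. It gave 43.3, 68.3 and 53.6 at 16-20 somites, 144.0, 98.2 and 160.8 at 21-25 somites, and 93.0, 129.5 and 162.0 at 26-30 somites. Both later stages lay wholly above 16-20 somites and overlapped with each other. The differences were 0.97 ± 0.27 in the first step (limma adjusted p = 0.316), -0.06 ± 0.27 in the second and 0.91 ± 0.27 over the whole interval (limma adjusted p = 0.343). Cardiac markers had negative differences over the whole interval in 11 of 13 tested genes, and their summed signal was 3741 to 19727 at 16-20 somites, 5921 to 6368 at 21-25 somites and 2671 to 7936 at 26-30 somites. The 19727 came from 16-20 somites replicate 2 alone. Replicates 1 and 3 of that stage gave 3741 and 4715, within the range of 26-30 somites. The part of cardiac tissue in the Rnf207 values was not tested.

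Trim44, a TRIM protein without a RING finger, had signals of 1471.6, 1057.9 and 1363.5 at 16-20 somites, 3519.0, 2251.5 and 1970.3 at 21-25 somites, and 2548.5, 2050.0 and 1740.7 at 26-30 somites. Both later stages lay above every array of 16-20 somites, and the highest array was the narrow-range array of 21-25 somites. The first step gave 0.95 ± 0.26 (limma adjusted p = 0.316), the second -0.26 ± 0.26 and the whole interval 0.69 ± 0.26 (limma adjusted p = 0.377). Leaving out the narrow-range arrays gave 0.70 for the first step and 0.43 for the whole interval.

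Rnf11 and Rnf103 complete the 6 members with the smallest p and a positive difference over the whole interval. Rnf11, a small RING protein that binds HECT ligases of the Nedd4 family, gave 1303.8, 718.9 and 919.2 at 16-20 somites, 1306.0, 1072.7 and 1166.4 at 21-25 somites, and 1483.6, 1744.3 and 1459.2 at 26-30 somites. All of its 26-30 arrays lay above the 6 earlier ones, with a whole-interval difference of 0.69 ± 0.24 (limma adjusted p = 0.366), but another probe set of Rnf11 above the filter showed -0.11. Rnf103, a ligase of the endoplasmic reticulum membrane, gave 267.9, 347.8 and 356.6 at 16-20 somites, 771.0, 663.7 and 401.7 at 21-25 somites, and 577.0, 674.7 and 451.4 at 26-30 somites. Both later stages lay above 16-20 somites, and the difference over the whole interval was 0.75 ± 0.27 (limma adjusted p = 0.366), or 0.46 without the narrow-range arrays.

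**Figure D2:**
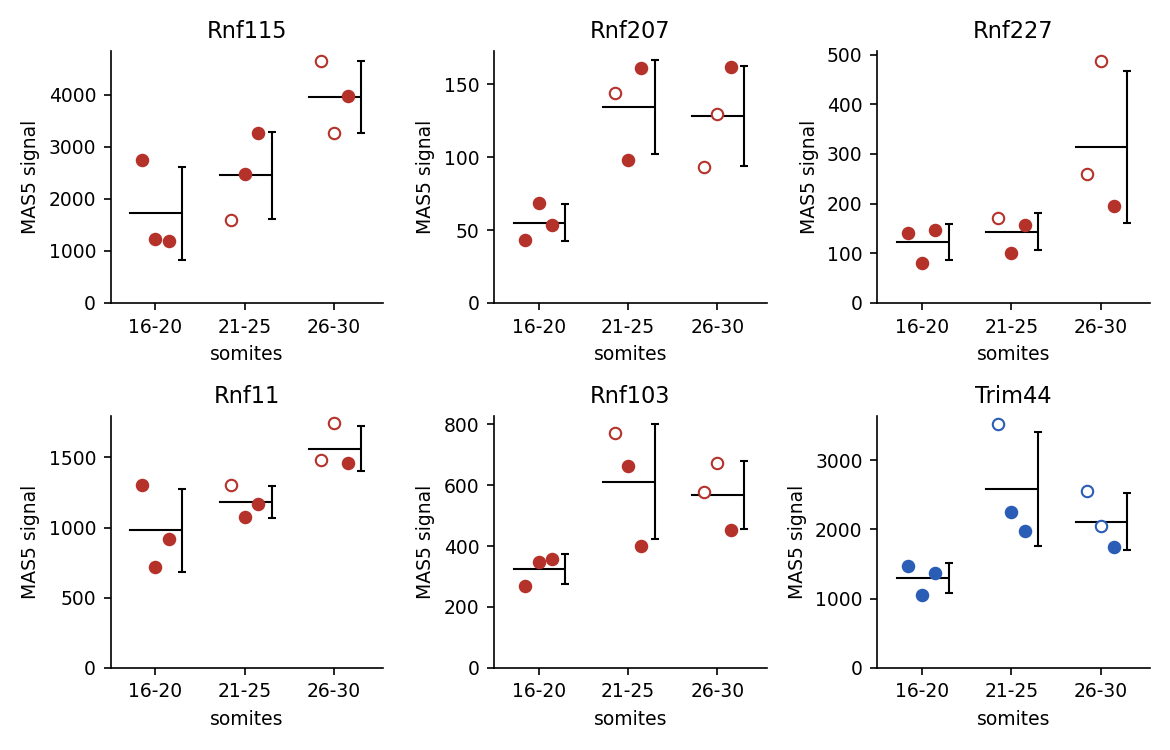
MAS5 signal (linear, from 0) of Rnf115, Rnf207, Rnf227, Rnf11, Rnf103 and Trim44 on each array, by stage in somites; open circles are the narrow-range arrays, horizontal lines are stage means and bars are SD (n = 3). In each of the 6 panels the lowest array of 26-30 somites lies above the highest of 16-20 somites, for example 3266.9 against 2749.3 for Rnf115.

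Members with lower signal at 26-30 somites differed less. Trim43a, a mouse gene known from the preimplantation embryo whose close copies may share its probes, had the lowest difference at -0.64 ± 0.46 (limma adjusted p = 0.596). Its signals were 126.1, 69.9 and 143.9 at 16-20 somites, 136.9, 135.9 and 39.3 at 21-25 somites, and 21.0, 66.2 and 125.0 at 26-30 somites, so its stages overlapped. Trim62 gave -0.48 ± 0.45 (limma adjusted p = 0.692) and turned to 0.13 without 26-30 somites replicate 1. Trim16, a galectin-binding TRIM without a RING finger, gave 122.2, 129.7 and 118.6 at 26-30 somites, against 147.9, 190.9 and 161.3 at 16-20 somites. Those stages did not overlap, and the difference was -0.36 ± 0.21 (limma adjusted p = 0.531). Rnf113a1, whose human counterpart belongs to the spliceosome, gave 300.2, 253.3 and 220.7 at 26-30 somites, against 389.1, 327.7 and 382.1 at 16-20 somites, without overlap and with a difference of -0.47 ± 0.29 (limma adjusted p = 0.541).

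Rnf187, a RING protein that acts as a coactivator of c-Jun, had the brightest probe set of the family. It gave 14949.7, 16139.8 and 15590.7 at 16-20 somites, 8195.7, 17308.9 and 11551.0 at 21-25 somites, and 14216.7, 9605.3 and 14633.1 at 26-30 somites. The outer stages did not overlap, whereas 21-25 somites covered the widest range, from its narrow-range array at the bottom to replicate 2 at the top. The difference was -0.30 ± 0.28 (limma adjusted p = 0.688), or -0.09 without the narrow-range arrays, and its other probe set showed 0.04. Rnf186, a gene known from human colon epithelium, gave -0.35 ± 0.31 (limma adjusted p = 0.676).

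**Figure D3:**
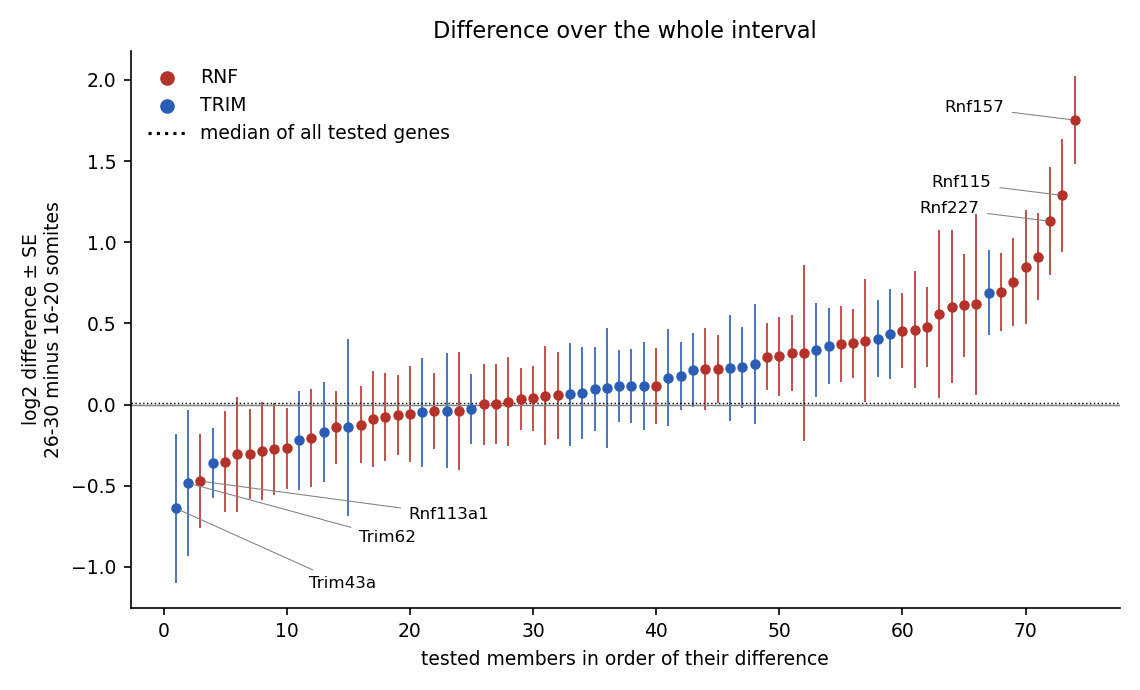
log2 difference between 26-30 and 16-20 somites (26-30 minus 16-20) with its SE for each of the 74 tested members, in order of size, RNF in red and TRIM in blue; the dotted line is the median of all 8675 tested genes. Rnf157 at 1.75, Rnf115 at 1.29 and Rnf227 at 1.13 lie above 1, and Trim43a at -0.64 is the lowest.

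Counted over both families, 0 of the 74 tested members and 0 of the 8675 tested genes (percent called 0) passed limma at an adjusted p of 0.05 in either step, over the whole interval, in the difference between the steps or in the F test over the 3 stages. An unadjusted p under 0.05 was found for 8 members over the whole interval, all with a positive difference. Their share, 10.8%, was close to the background of 11.2% of all tested genes, of which 6.33% were positive and 4.85% negative. Without 16-20 somites replicate 2 there were 5 such members (all genes 6.90%). Without 26-30 somites replicate 2 there were 5 positive and 1 negative (all genes 5.56%). The first step gave 8 members, 7 positive and 1 negative, on a background of 11.0%, with 5.72% positive and 5.28% negative. Without 21-25 somites replicate 2 it gave 16 positive and 1 negative (all genes 15.0%), and without the 3 narrow-range arrays 5 positive (all genes 5.86%). The second step gave 3, all positive, on a background of 4.09%, with 2.05% positive and 2.04% negative. The second step gave 5 positive members without 21-25 somites replicate 1 (all genes 9.04%) and 5 without 26-30 somites replicate 3 (all genes 4.75%). Without 21-25 somites replicate 3 there were 4 positive and 3 negative (all genes 5.36%), and without 21-25 somites replicate 2 there were 2, both negative (all genes 4.68%). There was 1 positive member without 26-30 somites replicate 1 (all genes 2.21%) and 1 negative without 26-30 somites replicate 2 (all genes 2.56%). The difference between the steps gave 6 members (background 6.31%) and the F test 8 (background 9.71%). With array weights, 8 members passed over the whole interval (10.8% of the 74, background 8.36%), namely Rnf157, Rnf115, Trim44, Rnf227, Rnf11, Rnf20, Rnf103 and Rnf138. In the F test with array weights 3 members passed (background 3.80%), in the second step 0 (background 0.334%) and in the first step 0 (background 0). With only the 6 arrays of the outer stages 1 member, Rnf157, passed (background 0.0461%).

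Over the whole interval, 14 of the 74 members (18.9%) had all 3 arrays of 26-30 somites above all 3 of 16-20 somites, against 11.2% of all tested genes. Only 3 (4.05%) had all 3 below, namely Rnf113a1, Rnf187 and Trim16, against 10.2%, and in the other 57 the stages overlapped. In either direction that is 17 members, on a background of 21.3%. The 14 were 13 RNF genes, 27.7% of the 47 tested, and 1 TRIM gene, Trim44, 3.70% of the 27 tested. They were Rnf103, Rnf11, Rnf115, Rnf13, Rnf14, Rnf146, Rnf157, Rnf19a, Rnf20, Rnf207, Rnf227, Rnf34, Rnf4 and Trim44. Leaving out the 3 narrow-range arrays keeps only 26-30 somites replicate 3, which this selection already places above 16-20 somites. A positive difference was therefore fixed for all 14, and its size ran from 0.18 for Rnf19a to 1.32 for Rnf157. In the first step 10 members lay wholly above and 3 wholly below (background 6.95% and 7.29%, together 14.2%). In the second step 4 lay wholly above and 1 wholly below (background 4.53% and 4.84%, together 9.37%). No test was made of the difference between the RNF and TRIM families.

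**Figure D4:**
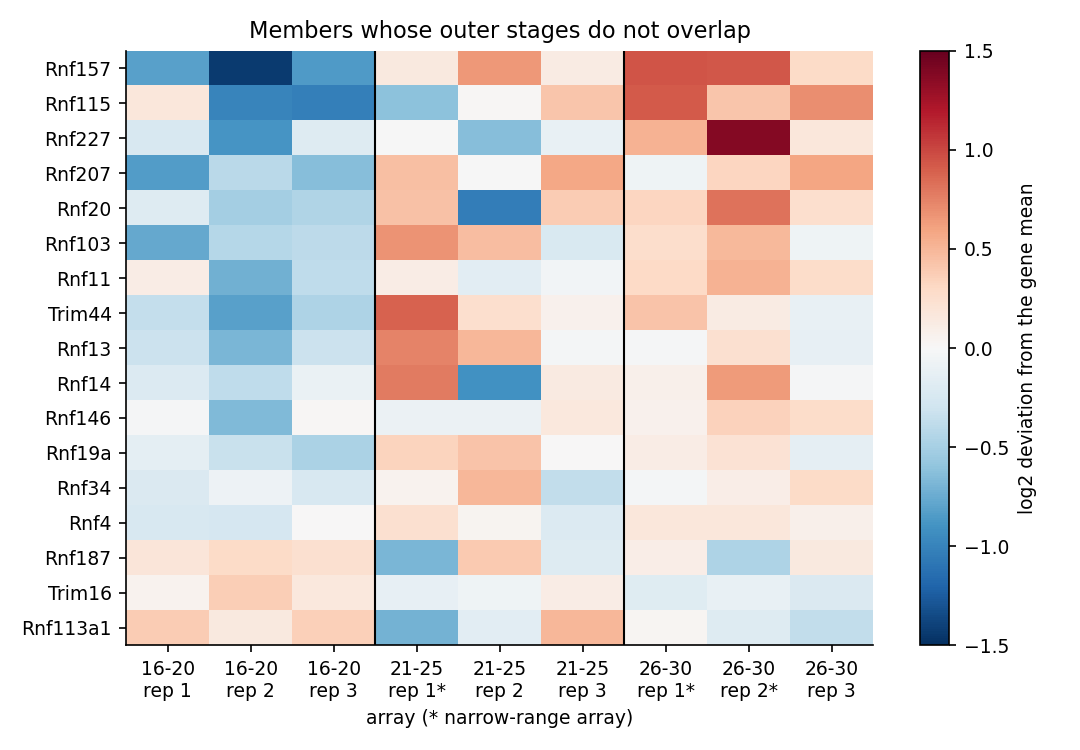
log2 deviation of each array from the gene's own mean over 9 arrays, for the 17 tested members whose arrays of 26-30 and 16-20 somites do not overlap, ordered by the whole-interval difference; red is above and blue below the mean, black lines separate the stages and asterisks mark narrow-range arrays. The upper 14 genes have positive and the lower 3 negative differences, and in the 21-25 somite columns both signs occur within a gene such as Rnf20.

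Most differences were small. Of the 74 members, 61 had a whole-interval difference under 0.5 in size and 3 one above 1. A positive difference was found in 49 of 74 (66.2%), against 50.9% of all tested genes, with medians of 0.12 for the members and 0.01 for all genes. In the first step 52 of 74 (70.3%) were positive with a median of 0.18, against 50.2% and 0.00 for all genes. That count rested in part on 1 array: without 21-25 somites replicate 1 it was 41 of 74 (55.4%) with a median of 0.06, against 45.6% of all genes. In the second step 31 of 74 (41.9%) were positive with a median of -0.05, against 50.9% of all genes. Without that array it was 41 of 74 (55.4%) with a median of 0.05, against 54.2% of all genes. Of the 27 TRIM genes, 21 were positive in the first step and 7 in the second, and the 2 steps share the arrays of 21-25 somites. Without 21-25 somites replicate 1 these counts were 15 and 13 of 27.

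Single arrays differed in how many members lay above their own mean over the 9 arrays. The shares were 29.7%, 45.9% and 45.9% at 16-20 somites, 67.6%, 48.6% and 55.4% at 21-25 somites, and 51.4%, 77.0% and 47.3% at 26-30 somites. For all tested genes they were 42.1%, 55.7% and 53.6%, then 60.6%, 45.6% and 51.1%, and then 47.1%, 60.2% and 48.9%. The members and all genes were both highest on narrow-range arrays, 21-25 somites replicate 1 and 26-30 somites replicate 2. Leaving out 16-20 somites replicate 2, the array with high hepatic and cardiac markers, gave 52 of 74 positive members (70.3%) over the whole interval. The median was then 0.18, and of all genes 53.5% were positive. Without 26-30 somites replicate 2 the count was 41 of 74 (55.4%) with a median of 0.07, against 47.6% of all genes. Without the 3 narrow-range arrays it was 44 of 74 (59.5%) with a median of 0.08, against 49.6%.

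**Figure D5:**
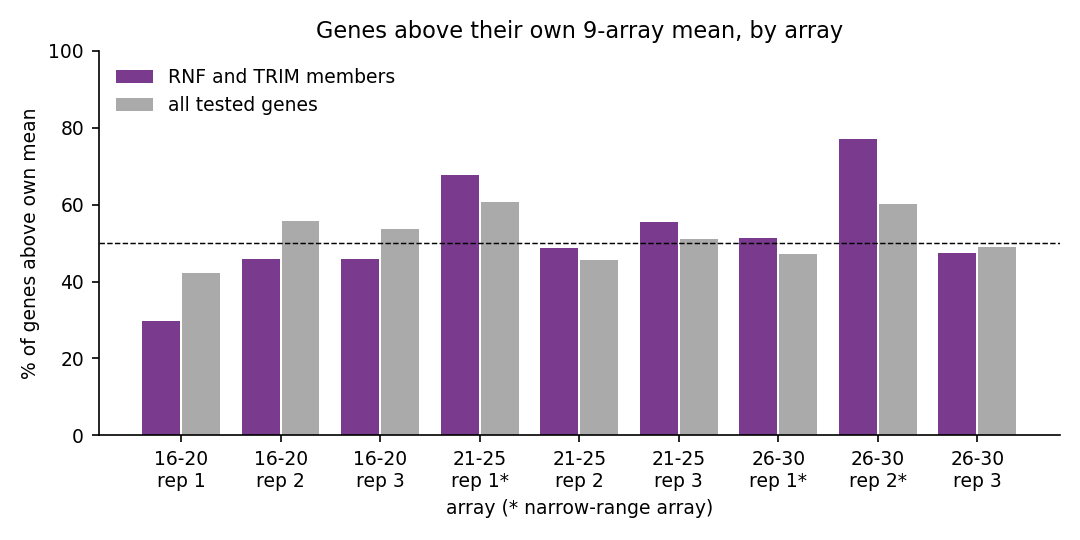
Percent of genes above their own mean over 9 arrays, for the 74 tested members (purple) and all 8675 tested genes (grey), by array; asterisks mark narrow-range arrays and the dashed line is 50%. Members reach 77.0% on 26-30 somites replicate 2 and 29.7% on 16-20 somites replicate 1.

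The steps brought forward other members. In the first step Rnf13, a ligase of endosomes and lysosomes, gave 1159.0, 973.3 and 662.9 at 21-25 somites, against 538.7, 414.4 and 538.2 at 16-20 somites. The stages did not overlap, and the difference was 0.85 ± 0.25 (limma adjusted p = 0.316), with -0.37 ± 0.25 in the second step. Rnf5, a ligase of the endoplasmic reticulum that marks misfolded proteins, gave 151.2, 98.2 and 244.5 at 21-25 somites, against 228.9, 322.4 and 277.6 at 16-20 somites. Its stages overlapped, and the difference was -0.73 ± 0.30 (limma adjusted p = 0.427).

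Rnf25 gave 139.0, 66.6 and 149.7 at 21-25 somites, against 155.7, 204.0 and 219.2 at 16-20 somites, without overlap and with a first-step difference of -0.64 ± 0.30 (limma adjusted p = 0.453). Rnf26, which holds endosomes near the endoplasmic reticulum, was separated in the first step as well, at -0.44 ± 0.25 (limma adjusted p = 0.529). Its signals were 2003.5, 2803.9 and 2508.3 at 16-20 somites, 1973.7, 1611.5 and 1738.7 at 21-25 somites, and 3367.2, 3356.2 and 1963.6 at 26-30 somites. The 2 highest arrays at 26-30 somites were the narrow-range ones, and the second step of 0.66 ± 0.25 (limma adjusted p = 0.998) was 0.23 without those arrays. A second probe set of Rnf26, above the filter, went the other way in the first step at 0.21 and showed 0.13 in the second.

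In the second step Rnf126, a ligase of cytosolic protein quality control, gave 564.5, 600.8 and 456.3 at 26-30 somites, against 402.8, 337.6 and 392.9 at 21-25 somites. The stages did not overlap, and the difference was 0.48 ± 0.21 (limma adjusted p = 0.998). Trim29, which lacks a RING finger, gave 145.6, 139.1 and 142.2 at 26-30 somites, against 395.2, 270.0 and 132.5 at 21-25 somites. The stages overlapped, and the difference was -0.68 ± 0.35 (limma adjusted p = 0.998). Rnf166 gave -0.39 ± 0.25 and Trim46, which bundles microtubules at the start of the axon, -0.79 ± 0.55, and the stages overlapped in both (limma adjusted p = 0.998 for each).

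By role, 55 of the 95 members fell into a list and 40 into none. Among ligases of chromatin, 6 were tested and 3 had a positive whole-interval difference, with a median of 0.09. Rnf20, which with Rnf40 places ubiquitin on histone H2B, gave 868.7, 1232.5 and 832.1 at 26-30 somites, against 601.0, 477.8 and 497.3 at 16-20 somites. Those stages did not overlap and differed by 0.85 ± 0.35, but at 21-25 somites Rnf20 gave 946.3, 324.4 and 910.2, and another of its probe sets above the filter showed -0.13. Rnf2, the catalytic subunit of Polycomb repressive complex 1, gave 4939.6, 3569.6 and 4588.5 at 26-30 somites. It gave 2658.5, 4492.3 and 3490.1 at 16-20 somites, which overlapped. A further Rnf2 probe set above the filter gave 1922.3, 2506.3 and 1337.4, against 986.1, 974.5 and 906.7 in the same order. There the outer stages did not overlap and differed by 0.94. Trim28, a corepressor for zinc-finger proteins, differed by 0.21 ± 0.23, and Trim33, which acts on SMAD signalling, by -0.05 ± 0.34. Without the narrow-range arrays Trim28 turned to -0.12 and Trim33 to 0.26.

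Trim33 had a single high array, 10626.1 on 21-25 somites replicate 2, where its other arrays gave 3399.6 to 5639.9. Of the 3 tested ligases of DNA damage and SUMO, all had positive differences, with a median of 0.60. Without the narrow-range arrays 2 of 3 were positive, with a median of 0.23, and Rnf111 turned to -0.03. Rnf138, which acts at broken DNA ends, gave 1332.8, 1529.5 and 972.9 at 26-30 somites, against 1074.6, 699.9 and 715.9 at 16-20 somites. These overlapped, the difference was 0.61 ± 0.32, and without the narrow-range arrays it was 0.25. Another probe set of Rnf138 above the filter showed only 0.10 over the whole interval. Rnf111, which raises TGF-beta and Nodal signals by removing inhibitors, differed by 0.60 ± 0.47 with wide spread, and Rnf4, which ubiquitinates proteins bearing SUMO chains, by 0.30 ± 0.21.

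Ligases of developmental signalling had 5 tested members, 4 of them positive, and a median of 0.32, or 3 positive and 0.27 without the narrow-range arrays. Rnf146, which promotes Wnt signalling through the removal of axin, gave 2883.6, 3505.6 and 3349.6 at 26-30 somites, against 2713.2, 1725.7 and 2778.7 at 16-20 somites. The stages did not overlap, the difference was 0.46 ± 0.23, and another probe set showed -0.12. The RING-between-RING ligases, which pass ubiquitin through a cysteine of their own, had 3 tested members with 2 positive and a median of 0.38, or 0.18 without the narrow-range arrays. Rnf19a gave 1285.3, 1388.2 and 1080.4 at 26-30 somites, against 1073.0, 943.4 and 852.1 at 16-20 somites, and 1515.8, 1611.8 and 1195.4 at 21-25 somites. Another probe set of Rnf19a above the filter showed 0.08 over the whole interval and -0.23 in the first step. Rnf14, a coactivator of nuclear receptors, differed by 0.46 ± 0.36, with 1152.5, 339.6 and 727.6 at 21-25 somites as its widest stage.

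Among the transmembrane ligases with a protease-associated domain, 4 of 5 were positive, with a median of 0.48, or 3 of 5 and 0.14 without the narrow-range arrays. Rnf130 was nearly level at 0.04 ± 0.20, with 915.7 to 1120.2 at 26-30 somites and 983.8 to 1047.9 at 16-20 somites. Rnf149 differed by 0.56 ± 0.52 and turned to -0.37 without the narrow-range arrays, while Rnf167 differed by 0.62 ± 0.56. Of 8 tested ligases of the endoplasmic reticulum and organelles, 6 were positive with a median of 0.13, or 5 and 0.06 without the narrow-range arrays. Rnf145, which acts in sterol-dependent degradation, differed by 0.39 ± 0.38, with 4744.6, 1352.3 and 3200.7 at 21-25 somites. Trim59 gave 3723.0, 3770.0 and 3256.2 at 26-30 somites, against 3681.3, 1951.7 and 2705.4 at 16-20 somites, a difference of 0.41 ± 0.24 with overlap. Rnf7, the RING partner of the cullin Cul5, had -0.04 ± 0.23.

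Antiviral and innate immune members numbered 13 on the array and 9 above the filter. All 9 tested had a positive whole-interval difference, but the median was only 0.11. Without the narrow-range arrays 8 of 9 were positive and Rnf135 turned to -0.23, and at least 1 further probe set of each of Rnf114, Trim21, Trim25 and Trim8 above the filter had a negative difference, while others of Rnf114 and Trim25 were positive. In the first step 8 of 9 were positive and in the second 2 of 9. Trim25, which activates the RNA sensor RIG-I, gave 2070.9, 2386.6 and 2227.2 at 26-30 somites, against 1855.1, 2739.0 and 1694.7 at 16-20 somites, a difference of 0.12 ± 0.27 with overlap. Trim21, the cytosolic antibody receptor, differed by 0.18 ± 0.21, Trim26 by 0.17 ± 0.30 and Trim27 by 0.11 ± 0.22. The summed signal of 9 tested and 4 dim genes together was 10069 to 13502 at 16-20 somites, 11929 to 15344 at 21-25 somites and 11572 to 13755 at 26-30 somites, and the stages overlapped.

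The TRIM-NHL proteins, whose NHL repeats bind RNA or protein partners, showed 3 of 3 tested genes positive over the whole interval, with a median of 0.34. Without the narrow-range arrays 2 of 3 were positive with a median of 0.07, and Trim2 turned to -0.15. Trim32 gave 881.9, 535.3 and 745.8 at 16-20 somites, 1457.4, 854.3 and 970.8 at 21-25 somites, and 1076.2, 1117.0 and 744.0 at 26-30 somites. Trim2, which acts on neurofilaments in neurons, gave 963.3, 475.9 and 732.8, then 1505.9, 692.5 and 959.6, and then 1032.0, 850.7 and 624.5 in the same order. Both genes and Trim3, with 329.0, had their highest value on the narrow-range array of 21-25 somites. The median of the 3 genes was 0.55 in the first step and -0.22 in the second. Trim37, which acts at peroxisomes and centrosomes, is no NHL protein and differed by 0.36 ± 0.24. Its other probe sets above the filter showed 0.13, -0.46 and 0.54.

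Members tied to tissues next to the foregut were few. Trim10, a gene of red cell development, gave 171.5, 225.7 and 294.3 at 26-30 somites, against 153.6, 258.3 and 241.4 at 16-20 somites, a difference of 0.07 ± 0.28 with overlap. The 11 tested erythroid markers had a median difference of 0.02, and the summed signal of the list was 41965 to 45508 at 16-20 somites, 22076 to 40833 at 21-25 somites and 25039 to 64207 at 26-30 somites. Trim54, a titin-associated protein of striated muscle, gave 2.9 to 25.9 and was below the filter. Its highest value lay on 16-20 somites replicate 2, the array with a summed cardiac signal of 19727, and its part in that value was not tested.

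The other enzymes of the pathway gave 0 calls as well. Of 30 E1 and E2 genes on the array, 28 were tested, 16 had a positive whole-interval difference, the median was 0.12 and 0 passed. Ube2d1, an E2 that works with many RING ligases, reached the smallest adjusted p of this list. It gave 214.8, 251.4 and 135.4 at 26-30 somites, against 110.7, 60.8 and 53.4 at 16-20 somites. The difference was 1.17 ± 0.32 without overlap (limma adjusted p = 0.325). Ube2s, the E2 that extends chains for the anaphase-promoting complex, gave 134.2, 345.4 and 277.6 at 26-30 somites, against 540.8, 619.5 and 920.7 at 16-20 somites, a difference of -1.42 ± 0.40 without overlap (limma adjusted p = 0.342). Of 69 ubiquitin ligases outside both families, 60 were tested, 38 were positive, the median was 0.06 and 0 passed. Bmi1, the Polycomb partner of Rnf2, reached the smallest adjusted p of these ligases. It gave 2091.5, 1777.9 and 1594.8 at 26-30 somites, against 1225.8, 558.6 and 815.1 at 16-20 somites. The difference was 1.11 ± 0.27 (limma adjusted p = 0.321). The steps and the whole interval share arrays, so their values are given side by side only.

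Probe sets of a member did not always run the same way. A further probe set above the filter was present for 27 of the 74 tested members. For 17 of them, 1 or more of these probe sets differed between the outer stages in the opposite direction. Those 17 included Rnf11, Rnf14, Rnf146, Rnf187, Rnf20 and Rnf4, all among the members whose outer stages did not overlap. Repeated amplification favours the 3′ part of a transcript, and the signal of the 3′ over the 5′ probe set of beta-actin was 20.9 to 45.3 on the 9 arrays. It was 20.9 to 22.2 on the 3 narrow-range arrays, all of later stages, and 22.4 to 45.3 on the other 6. For Gapdh the ratios were 16.0 to 21.0 and 21.6 to 40.9. The part of this 3′ bias in the disagreement or in the stage differences was not tested.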

How the data were processed

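Per the submitters' processing notes, MAS5 was what the authors used for the deposited intensity values; the MAS5 version and scaling target are not given here. The table held 22690 probe sets. Of these, 64 controls, 691 with several symbols and 1555 with none were left out. The 691 include 4 probe sets that name a member beside another gene. All 95 members were found in RefSeq's gene table, with 0 symbols altered. A pseudocount of 26.2, the 20th percentile of values without controls, was added before log2. The filter removed genes whose mean lay below the 30th percentile and kept 8675. With limma 3.58.1 (R 4.3.3; lmFit, then eBayes with a trend), 1 mean per stage was fitted over the 9 arrays, and p was two-sided with Benjamini-Hochberg adjustment over all 8675 genes. The step was tested on 20 simulated sets of 8675 genes for 26-30 against 16-20 somites, with 200 genes changed in each. It recovered 36% of the changed genes at a log2 change of 1, 73.9% at 1.5 and 87.9% at 2. The mean number of false calls was 8.6. Changes of 1 or less can therefore be missed. The p-values measure the spread between pools, and precision is limited by there being 9 arrays.

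The members, Rnf157 as the gene set apart, the lists, the narrow-range arrays and the rules were chosen with earlier results of these data known. Named are the 6 members per direction with the smallest p over the whole interval, 4 per direction in each step, 3 in the F test, the 8 brightest, per role list the 2 brightest and the 2 with the widest difference, and members of muscle, erythroid or NHL type. Rnf138 was also named after it passed with array weights. Ube2d1, Ube2s and Bmi1 were named outside this rule, so they do not stand for their lists. Alternatives were quantile normalization, median centring, pseudocounts of 6.55 and 105, filters at the 50th percentile or none, no trend, array weights, a replicate block, the mean of all probe sets, only 6 arrays, each array left out and the 3 narrow-range arrays left out.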

Additional observations from a re-analysis of the deposited data

How the results depend on the processing

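The count of members that passed was 0 and stayed 0 when any 1 array was left out, in each comparison. Array weights, the largest of them on a narrow-range array, gave 8 members over the whole interval and 3 in the F test. Only the 6 outer arrays gave 1. Those settings also carried Rnf157 past the threshold at 1.84 and 1.75. The cause was not tested. Leaving out 1 array moved Rnf157 between 1.55 and 1.97 over the whole interval, between 1.14 and 1.45 in the first step and between 0.30 and 0.63 in the second. Leaving out the 3 narrow-range arrays, which keeps only replicate 3 of 26-30 somites, turned its second step to -0.10. It also turned the whole-interval value of Rnf5 to 0.16, Rnf26 to -0.30, Rnf126 to -0.00473, Trim43a to 0.16 and Rnf186 to 0.00477, and Rnf111, Trim28, Trim33, Trim2 and Rnf149 changed sign too, as given above. Single arrays turned other values that had not passed. Trim46 became 0.30 without 16-20 somites replicate 2, 0.55 without 26-30 somites replicate 3 and 0.26 with array weights. Trim29 became 0.25 without 16-20 somites replicate 2. Leaving out 1 array otherwise took Trim46 as low as -0.60, Trim29 to -0.26, Rnf25 to -0.25 and Trim62 to -0.97. Rnf25 became 0.03 without 16-20 somites replicate 3 and 0.10 without 26-30 somites replicate 3, and Trim62 became 0.13 without 26-30 somites replicate 1. The median of all members over the whole interval ranged from 0.05 to 0.19. To look for pairing, each gene's stage mean was subtracted and the remaining deviations were correlated between arrays of different stages. These correlations ran from -0.283 to 0.257 for same-numbered arrays and from -0.518 to 0.435 for differently numbered ones. The arrays themselves correlated at 0.900 to 0.981 within a stage. With 3 arrays per stage these values cannot decide whether the numbers pair the samples. The replicate block gave Rnf157 1.75 and changed no call. Probe sets near background, such as those of the 21 members below the filter, limit what can be said of dim genes. Setting Rnf157 against its family by deviations was chosen after seeing the data.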
